A study of Mus musculus with 12 samples.

Results

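The genes of 7 nuclear receptors were followed through 2 maps of open chromatin in mouse fat: Nr1h3 and Nr1h2, which encode the liver X receptors LXRα and LXRβ; Nr2f1, Nr2f2 and Nr2f6, which encode COUP-TFI, COUP-TFII and EAR2; Rora, which encodes the retinoic acid receptor-related receptor RORα; and Vdr, which encodes the vitamin D receptor. Every peak that the deposited tables assign to 1 of these symbols was taken, which gave 54 of 58558 peaks in brown fat (BAT) and 40 of 39558 in inguinal white fat (iWAT), 94 of 98116 in both. Rora held 22 BAT and 19 iWAT peaks, Nr2f1 16 and 9, Nr2f2 10 and 5, Vdr 2 and 4, and Nr1h3 2 and 1. Nr1h2 and Nr2f6 held 1 peak in each table.

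The assay was ATAC-seq, which cuts and tags DNA with a transposase where chromatin is accessible, so more reads at a site mean that it was open more often. The question was how accessibility differs when BAF60a, a subunit of SWI/SNF chromatin-remodelling complexes encoded by Smarcd1, is lost from adipocytes. Flox mice carry floxed BAF60a alleles (flox/flox), AKO mice carry them together with an Adiponectin-Cre transgene that is active in adipocytes, and all samples are of strain C57BL/6. BAT came from 3 flox and 3 AKO mice, 1 mouse a sample, and their age and housing at collection are not given in the sources used here. iWAT came from mice aged 6 to 8 months that were acclimated to cold in steps down to 10 °C and then stayed there for 7 days, and was pooled by genotype before it was split into 3 aliquots, so that 3 flox and 3 AKO samples of iWAT are technical replicates of 1 pool each. p-values in iWAT measure only the spread between aliquots. The nuclei came from whole tissue, so cells other than adipocytes contribute reads and keep BAF60a, and a lower signal from fewer cells of a type cannot be told apart from less open chromatin per cell.

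These receptors bind DNA as single molecules or as pairs at the half-site AGGTCA. LXRα, LXRβ and the vitamin D receptor pair with RXR on 2 copies of the half-site in the same orientation and respond to oxysterols and to calcitriol, respectively. COUP-TF proteins are orphan receptors that bind repeats of many spacings and often repress, and RORα binds 1 half-site preceded by an A/T-rich stretch and activates, among others, genes of the circadian clock. LXRs govern cholesterol efflux and lipogenesis, and COUP-TFII is known for its roles in mesenchymal and venous endothelial cells.

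BAT samples held between 6336670 (AKO 2) and 27500738 (flox 1) reads in peaks, and iWAT samples between 4066720 and 6691161. The values below are normalized reads, read counts divided by 1 size factor per sample. The leading axis of variation in BAT, PC1, took 55.6% of the variance and ran from flox 1 at -98.2 to AKO 2 at 112, the deepest and the shallowest sample, and its score was a covariate in the BAT fit. The other scores were -41.8 and 14.6 in flox and -0.62 and 13.5 in AKO. The genotypes overlapped on PC1 but were not balanced on it, so the covariate also takes up part of the genotype difference in BAT. In iWAT, PC1 took 33.8% and separated the genotypes, and no covariate was used. The deletion was visible in BAT at a peak over Smarcd1 with 136, 201 and 185 normalized reads in flox and 23.7, 57.9 and 26.9 in AKO, while iWAT had no peak at that place. The limma log2 fold change there was -2.98 ± 0.27 (SE), adjusted p = 0.269. The 1 Smarcd1 peak of iWAT, at the start site, held 188 to 249 in flox and 229 to 233 in AKO, so the deletion could not be checked there. Brown adipocyte marker genes moved with genotype in BAT. Of their 70 peaks, 28 (40%) were lower in AKO without overlap and 0 were higher, beside 8.84% and 8.77% of all BAT peaks. Their summed signal ran from 19244 to 22757 in flox and from 12864 to 14032 in AKO. In iWAT, 2 of 21 peaks of the same genes were lower without overlap (9.52%, against 10.3% of all iWAT peaks) and 4 were higher (19.0%, against 10.6%). The ratio of their summed signal, AKO to flox, was 1.07. General adipocyte markers summed to between 16961 and 19740 in flox BAT and between 11573 and 16241 in AKO. For the 9 other marker lists, this ratio lay between 0.89 and 1.16 in BAT, and in iWAT between 0.80 for lymphocyte and 1.13 for Schwann cell and neuron markers. The defining markers Csf1r, Cd68, Itgam, Cd3e, Cd79a, Ptprc, Cd8a and Lyve1 had no peak in BAT, whereas Adipoq, Plin1 and Ucp1 had peaks in both tissues. The part of these shifts in the values of the receptor genes was not tested.

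At none of the receptor genes was a difference between AKO and flox called by limma. In BAT, 0 of 54 peaks had an adjusted p under 0.1, as had 0.0% of all peaks, and the smallest adjusted p was 0.417. At an unadjusted p under 0.05, 8 of the 54 were lower in AKO (14.8%, against 5.59% of all peaks) and 2 were higher (3.70%, against 3.46%). Without the PC1 covariate the counts turned to 5 lower (9.26%, against 4.37% of all peaks) and 7 higher (13.0%, against 7.57%). All 3 samples of 1 genotype lay beyond those of the other at 7 peaks lower in AKO (13.0%, against 8.84% of all peaks) and at 9 higher in AKO (16.7%, against 8.77%). DESeq2 called 0 of the 54 peaks, where it called 0.297% of all, and edgeR called 0, where it called 0.143% of all. The median log2 fold change over the 54 peaks was -0.04, and over all BAT peaks it was 0.01.

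In iWAT, limma called 0 of 40 peaks, as it did 0.0% of all, with a smallest adjusted p of 0.152. At an unadjusted p under 0.05, 3 were lower in AKO (7.5%, against 7.42% of all peaks) and 5 were higher (12.5%, against 7.61%). The genotypes did not overlap at 3 peaks lower in AKO (7.5%, against 10.3%) and at 7 higher in AKO (17.5%, against 10.6%). DESeq2 called 0 of the 40 (1.06% of all peaks), and edgeR called 1 of them (4.67% of all), the peak in intron 2 of Vdr, lower in AKO. The median log2 fold change was 0.08, beside 0.00 over all iWAT peaks. By gene, in BAT 12 of 16 Nr2f1 peaks had a negative fitted fold change and 16 of 22 Rora peaks a positive one, beside 49.1% negative and 50.9% positive over all peaks. Without PC1 these were 10 of 16 and 12 of 22. In iWAT 7 of 9 Nr2f1 peaks and 10 of 19 Rora peaks were positive, beside 49.9% of all peaks.

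**Figure D1:**
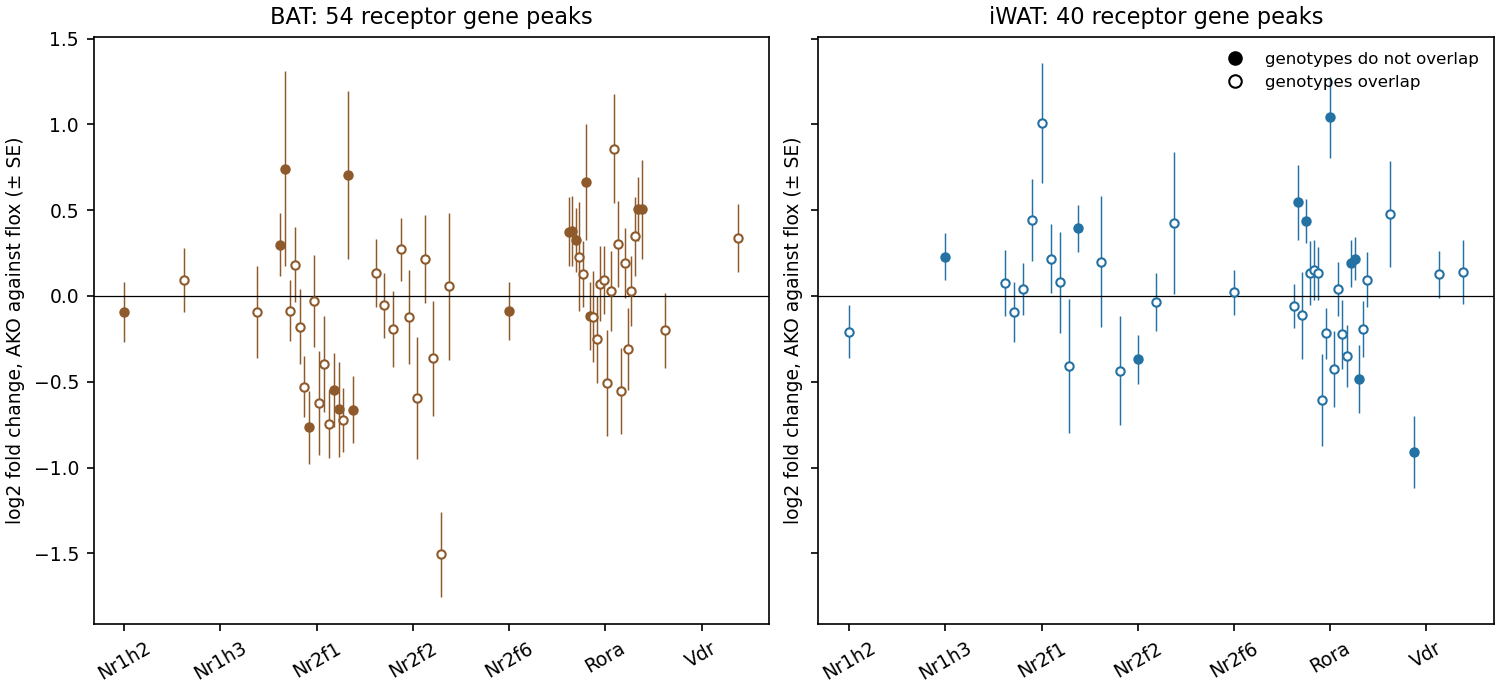
Log2 fold change of AKO against flox with its standard error for each of the 54 BAT peaks (left) and 40 iWAT peaks (right) of the 7 receptor genes, in genome order within a gene; filled points mark peaks whose 3 flox and 3 AKO samples do not overlap. Nr2f1 peaks lie mostly below 0 in BAT, Rora peaks mostly above it, and the lowest point is a Nr2f2 peak at -1.51.

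Most of these peaks lay away from promoters. Of the 54 BAT peaks, 6 covered the start of the principal or longest coding transcript, 24 lay in introns and 25 were more than 200 kb upstream of the principal start, the Rora introns between its starts included. Of the 40 iWAT peaks, 6 covered such a start, 21 lay in introns and 11 were that far upstream. Beside these, 2 BAT peaks and 1 iWAT peak covered the start of another annotated transcript, Nr2f2-205 in both tissues and Rora-203 in BAT. Their median width was 470.5 bp in BAT and 443 bp in iWAT, beside 482 and 432 bp over all peaks. The fewest reads in a sample were 6 in BAT and 8 in iWAT, and 52 and 38 of the peaks had at least 10 reads in every sample.

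Levels were compared between genes per kb of peak. In flox BAT the Nr1h3 start was the most accessible, with 767 ± 109 normalized reads per kb (SD, n = 3), followed by Nr2f6 with 530.0 ± 36.3, the peak next to the Nr2f2 start with 451 ± 54.1 and Nr1h2 with 322 ± 46.4. Nr2f1 (243 ± 13.7), the downstream start of Rora (242 ± 18.0) and Vdr (221 ± 16.9) came next, and the upstream start of Rora was last with 143 ± 11.2. Neighbours in this order overlapped in their samples for Nr2f6 and Nr2f2, for Nr2f1 and Rora, and for Rora and Vdr. In flox iWAT the order ran from Nr2f2 (333 ± 46.1) over Nr2f6 (300.2 ± 10.2) and Nr1h3 (299 ± 24.6) to the downstream Rora start (220.1 ± 10.5), Nr1h2 (192 ± 30.2), Nr2f1 (187 ± 36.9), the upstream Rora start (162 ± 8.92) and Vdr (108 ± 7.75). The samples of neighbours overlapped there except between Nr1h3 and Rora and between the upstream Rora start and Vdr. The 2 tables were normalized separately, so levels were not compared between the tissues, and the width of a peak as called enters each value per kb.

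**Figure D2:**
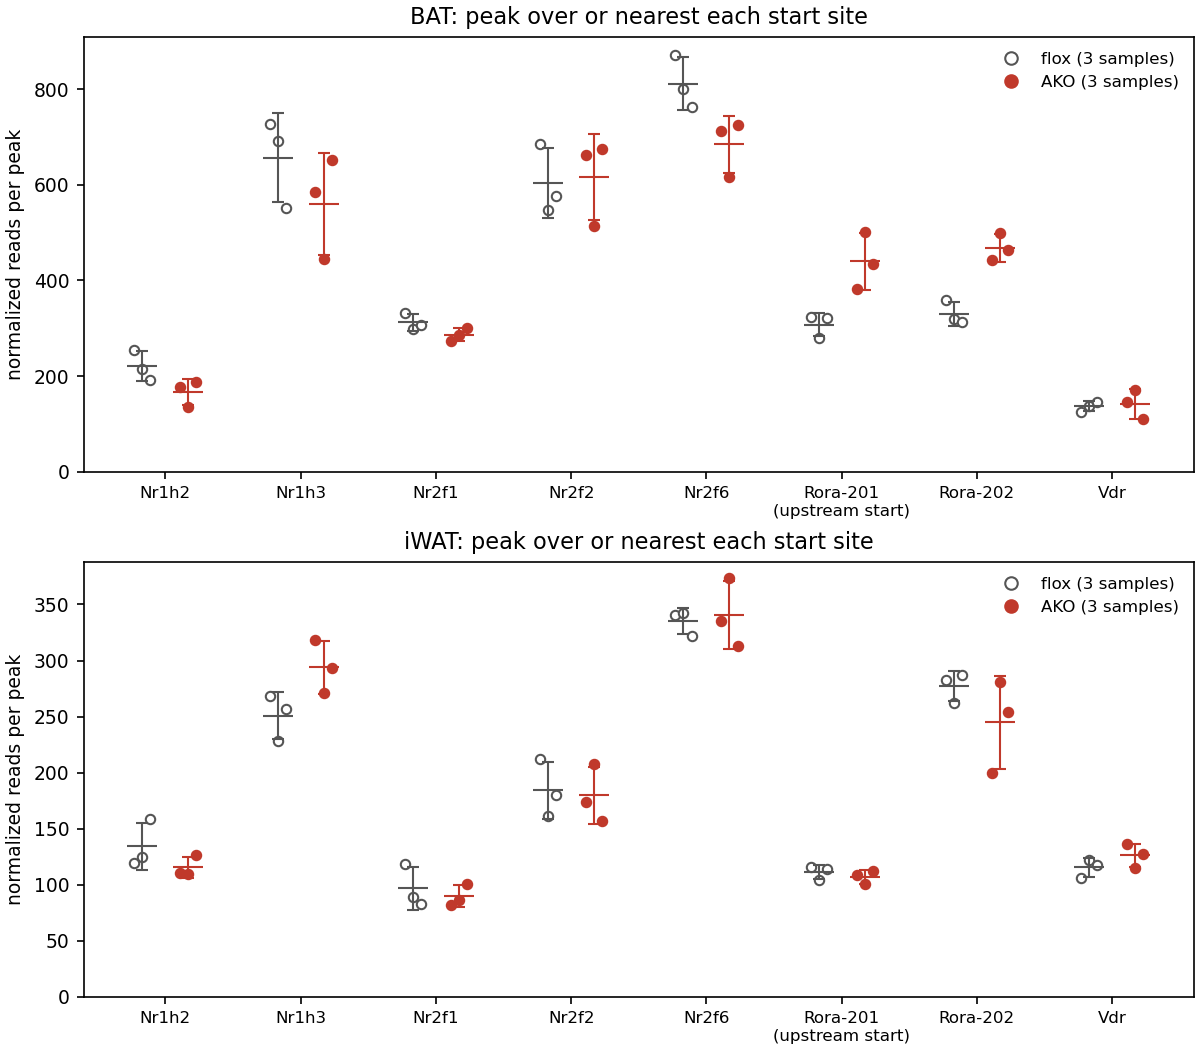
Normalized reads per peak (not per kb) at the peak over or nearest each start site, in BAT (top) and iWAT (bottom), for 3 flox (open) and 3 AKO (filled) samples with mean and SD. In BAT both Rora start sites have all AKO samples above all flox samples, and Nr1h2 and Nr2f6 have all AKO samples below; in iWAT this separation is seen at Nr1h3.

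The LXR genes had peaks only at or near their start sites in these tables. Nr1h3 (LXRα) lies on the minus strand of chromosome 2, and its start-site peak in BAT (chr2:91194573-91195428, mm10) held 727, 692 and 551 normalized reads in the flox samples and 585, 444 and 651 in the AKO samples. The genotypes overlapped, and the log2 fold change was 0.09 ± 0.19 (SE), adjusted p = 0.903; without the PC1 covariate it was -0.24. In iWAT the start-site peak (chr2:91194605-91195443) held 268, 228 and 257 in flox against 318, 271 and 293 in AKO. All AKO aliquots were above all flox aliquots there, by a log2 fold change of 0.23 ± 0.14 (SE), adjusted p = 0.480. A second BAT peak of Nr1h3, 1.5 kb upstream of the start, held 54.3, 84.2 and 59.5 in flox against 59.8, 50.2 and 63.3 in AKO, with overlapping genotypes. Both tables also assign 2 peaks in the Nr1h3 body to its neighbours Acp2 and Madd, which were not counted. Nr1h2 (LXRβ), on the minus strand of chromosome 7, had a start-site peak in BAT (chr7:44553436-44554120) with 254, 216 and 191 in flox against 177, 135 and 187 in AKO. The AKO samples were the 3 lowest, yet the fold change was -0.09 ± 0.17 (SE), adjusted p = 0.896 with the PC1 covariate and -0.41 without it. In iWAT (chr7:44553409-44554106) the values were 119.8, 125 and 158 in flox against 111, 109.6 and 126 in AKO, which overlapped, with -0.21 ± 0.16 (SE), adjusted p = 0.576.

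Nr2f1 (COUP-TFI) is on the minus strand of chromosome 13. Of its peaks, 10 of 16 in BAT and 6 of 9 in iWAT were more than 200 kb upstream of its start. For each of these, the start of Nr2f1 was the nearest among principal coding transcripts, but nearness is the ground for that assignment and no contact was measured. At the peak in exon 1 the genotypes overlapped in both tissues. In BAT (chr13:78198314-78199597) it held 332, 299 and 307 in flox against 274, 286 and 300.3 in AKO, and the fold change was -0.09 ± 0.18 (SE), adjusted p = 0.905. In iWAT (chr13:78199054-78199569) it held 118, 88.9 and 82.6 in flox against 81.8, 86.8 and 101 in AKO, with -0.09 ± 0.18 (SE), adjusted p = 0.840. This peak and the peaks just upstream also overlap the antisense gene A830082K12Rik.

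Of the 7 Nr2f1 peaks lower in BAT at an unadjusted p under 0.05, 6 lay more than 200 kb upstream, and 5.59% of all BAT peaks were lower by this measure. The other one, 10.8 kb upstream, was at -0.53 (unadjusted p = 0.0209, genotypes overlapping) and at 0.19 without PC1. Among the 6 BAT peaks more than 900 kb from the start, a set formed after the values were seen, 5 had a negative fold change, 5 of them at an unadjusted p under 0.05, and 3 had all AKO samples below all flox samples, as had 8.84% of all BAT peaks. Without PC1, the peaks lower at an unadjusted p under 0.05 were the 3 without overlap, and those 911.7 and 950.2 kb upstream were at -0.08 and -0.20. The farthest, 1086.2 kb upstream (chr13:79285458-79286358), held 239, 308 and 285 in flox against 179, 182 and 190.0 in AKO, so that AKO samples kept 66.3% of the flox mean, with a log2 fold change of -0.66 ± 0.20 (SE), adjusted p = 0.476. The peaks 934.2 kb and 939.1 kb upstream held 171, 205 and 189 in flox against 149, 126 and 114 in AKO, and 188, 188 and 207 in flox against 99.0, 118 and 166 in AKO. They too did not overlap, at log2 fold changes of -0.55 and -0.66. A peak of 115 bp lying 963.8 kb upstream was the exception, with 8.88, 4.43 and 18.1 in flox against 18.6, 27.0 and 22.1 in AKO, higher in AKO without overlap. Its log2 fold change was 0.71, and without PC1 it was 1.21 (limma, unadjusted p = 0.0163). Over all 16 BAT peaks of Nr2f1, 4 were lower without overlap and 3 were higher, beside 8.84% and 8.77% of all BAT peaks. Another higher one, in intron 2, held 13.6, 8.13 and 14.2 in flox against 33.0, 65.7 and 14.4 in AKO, at 0.74, or 1.37 without PC1. The last, 36.2 kb downstream of the start, held 263, 268 and 230 in flox against 290, 309 and 310 in AKO, at 0.30. That peak lies past the end of Nr2f1 and overlaps the genes Fam172a and Gm38604.

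Of the 3 BAT peaks of Nr2f1 with the smallest p, 283.7, 911.7 and 950.2 kb upstream, the first (chr13:78483185-78483653) held 89.9, 73.2 and 98.3 in flox against 53.6, 67.6 and 52.8 in AKO. It did not overlap, with -0.76 ± 0.21 (SE), adjusted p = 0.466, and without PC1 the fold change was -0.58. The peak at 911.7 kb (chr13:79111160-79111781) held 84.6, 117 and 136 in flox against 76.3, 168 and 89.2 in AKO, with AKO 2 the highest of all samples. Its fold change was -0.75 ± 0.20 (SE), adjusted p = 0.444, which became -0.08 without PC1. The peak at 950.2 kb (chr13:79149471-79150522) held 110.3, 147 and 179 in flox against 93.8, 166 and 121 in AKO, and its fold change of -0.72 ± 0.19 (SE), adjusted p = 0.443 became -0.20. These last 2 estimates therefore rest on the covariate, whereas the values at 1086.2, 934.2, 939.1 and 283.7 kb lay between -0.63 and -0.54 without it. AKO 2, the shallowest BAT sample, was the highest of the 6 samples at 14 of the 54 receptor peaks and the lowest at 15. At the Nr2f1 peak 675.9 kb upstream, picked after its values were seen, it held 124 normalized reads, and the other 5 samples between 26.6 and 44.0.

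In iWAT the peak with the smallest p, 374.1 kb upstream (chr13:78573716-78574030), held 14.3, 33.4 and 12.1 in flox against 42.6, 33.1 and 36.4 in AKO, with overlapping genotypes and 1.01 ± 0.35 (SE), adjusted p = 0.249. The iWAT peak inside the farthest BAT peak, 1085.9 kb upstream (chr13:79285567-79285815), held 44.2, 41.1 and 41.3 in flox against 61.1, 49.1 and 57.7 in AKO. All AKO aliquots were above all flox aliquots, at 0.39 ± 0.14 (SE), adjusted p = 0.256, the reverse of the order in BAT. The 300 bases around its centre (mm10 chr13:79285542-79285841, minus strand, 5′ to 3′) cover the 249 bp of the iWAT peak, lie inside the BAT peak and touch the long noncoding gene Gm29318. They are shown because the genotypes were ordered in opposite directions here. Capitals mark 2 copies of the half-site 1 base apart, the second exact:
Nr2f1 far upstream: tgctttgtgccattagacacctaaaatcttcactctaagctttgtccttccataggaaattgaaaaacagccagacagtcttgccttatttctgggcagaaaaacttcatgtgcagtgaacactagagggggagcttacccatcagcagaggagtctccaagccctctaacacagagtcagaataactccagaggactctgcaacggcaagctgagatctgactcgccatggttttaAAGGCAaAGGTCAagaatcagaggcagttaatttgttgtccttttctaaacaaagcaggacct

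Nr2f2 (COUP-TFII), on the minus strand of chromosome 7, has the starts of its principal and its longest coding transcript 6.1 kb apart, and no peak was centred within 1 kb of the former. The nearest, 1.0 kb away in BAT (chr7:70360927-70362264), held 686, 548 and 577 in flox against 663, 514 and 674 in AKO, and its iWAT counterpart (chr7:70361673-70362226) held 212, 161 and 179.9 in flox against 174, 208 and 157 in AKO. Neither separated the genotypes, with 0.27 ± 0.19 (SE), adjusted p = 0.698 and -0.04 ± 0.17 (SE), adjusted p = 0.940, respectively. In intron 1, the iWAT peak (chr7:70358371-70358935) was lower in AKO without overlap, at 69.9, 88.9 and 81.8 in flox against 58.8, 62.8 and 63.1 in AKO, with -0.37 ± 0.14 (SE), adjusted p = 0.288. The BAT peak at the same place held 277, 231 and 264 in flox against 194, 176 and 247 in AKO, which overlapped, with -0.19 ± 0.22. The BAT peak with the smallest p of all receptor peaks lay 461.9 kb upstream (chr7:70822318-70822575), between genes, and held 35.5, 59.9 and 69.9 in flox against 27.8, 42.5 and 20.1 in AKO. Flox 1 was below AKO 2, so the genotypes overlapped, and the fold change was -1.51 ± 0.25 (SE), adjusted p = 0.417, or -0.86 without PC1. Its 258 bp lie within the window below (mm10 chr7:70822297-70822596, minus strand), shown because it had the lowest fold change of the 54 BAT peaks. It holds no copy of AGGTCA and no repeat of it of the kinds searched:
Nr2f2 upstream: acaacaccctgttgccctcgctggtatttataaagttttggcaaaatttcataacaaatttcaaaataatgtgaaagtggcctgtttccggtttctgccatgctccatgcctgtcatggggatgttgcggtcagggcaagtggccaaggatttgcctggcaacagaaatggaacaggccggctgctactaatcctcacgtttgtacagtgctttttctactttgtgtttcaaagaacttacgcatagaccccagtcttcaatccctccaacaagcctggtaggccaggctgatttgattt

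Nr2f6 (EAR2), on the minus strand of chromosome 8, had a start-site peak in BAT (chr8:71381436-71382966) with 872, 801 and 762 in flox against 713, 616 and 725 in AKO, 812 ± 55.6 in flox and 685 ± 59.9 in AKO (SD, n = 3). The AKO samples were the 3 lowest, but the fold change was -0.09 ± 0.17 (SE), adjusted p = 0.900, and -0.25 without PC1. In iWAT (chr8:71381791-71382906) the values were 341, 342 and 322 in flox against 335, 373 and 313 in AKO, and the difference of 0.02 ± 0.13 was within the spread of the aliquots (adjusted p = 0.957).

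Rora (RORα), on the plus strand of chromosome 9, was the gene with most peaks, and in BAT the values at both of its start sites were higher in AKO. Its longest coding transcript, Rora-201, starts 635.9 kb upstream of its principal transcript, Rora-202. The BAT peak at the downstream start (chr9:69289531-69290897) held 358, 319 and 313 in flox against 442, 498 and 463 in AKO. All AKO samples exceeded all flox samples, with means of 330.2 ± 24.6 in flox and 468 ± 28.3 in AKO (SD, n = 3) and a log2 fold change of 0.51 ± 0.19 (SE), adjusted p = 0.522, and 0.50 without PC1. The upstream start, named here after its values were seen, had a wide BAT peak (chr9:68653383-68655541) with 323, 280.1 and 321 in flox against 382, 502 and 435 in AKO. It did not overlap either, with 0.38 ± 0.20 (SE), adjusted p = 0.618, and 0.51 without PC1. In iWAT the genotypes overlapped at both starts. The downstream peak (chr9:69289536-69290795) held 282, 262 and 287 in flox against 199, 281 and 254 in AKO, with -0.19 ± 0.16 (SE), adjusted p = 0.617, and the upstream peak (chr9:68653392-68654079) held 116, 105 and 114 in flox against 108, 100.5 and 112 in AKO, with -0.06 ± 0.13 (SE), adjusted p = 0.867. The 250 bases before the upstream start (RefSeq, GRCm38.p6 chr9:68653536-68653785, plus strand) are shown because the peak over them separated the genotypes in BAT, and they hold no match to the receptor motifs searched:
Rora-201 promoter: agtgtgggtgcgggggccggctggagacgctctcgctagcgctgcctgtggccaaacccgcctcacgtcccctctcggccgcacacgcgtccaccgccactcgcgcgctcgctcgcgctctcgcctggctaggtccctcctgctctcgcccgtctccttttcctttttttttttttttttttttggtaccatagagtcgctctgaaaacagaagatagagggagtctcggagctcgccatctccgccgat

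Within Rora, 6 of 22 BAT peaks were higher in AKO without overlap and 1 was lower, and in iWAT 5 of 19 were higher and 1 was lower. Over all peaks, these shares were 8.77% higher and 8.84% lower in BAT and 10.6% and 10.3% in iWAT. Besides the start sites, the BAT peaks that were higher lay 598.9, 593.9 and 242.9 kb upstream of the downstream start, all in intron 1 of Rora-201, and 17.3 kb downstream of it. They held 43.9, 47.3 and 44.0 in flox against 53.6, 71.5 and 68.1 in AKO at 598.9 kb, and 87.3, 93.1 and 95.7 in flox against 126, 110.1 and 110.3 in AKO at 593.9 kb. At 242.9 kb, a peak of 61 bp held 4.70, 11.8 and 11.6 in flox against 21.6, 23.2 and 17.3 in AKO, and at 17.3 kb the values were 21.9, 25.9 and 42.7 in flox against 50.5, 48.3 and 52.8 in AKO. The log2 fold changes of these 4 peaks ran from 0.33 to 0.67, and the smallest adjusted p over all Rora peaks in BAT was 0.522.

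The peak 598.9 kb upstream was the 1 place among the 29 overlapping pairs of receptor peaks where AKO was higher without overlap in both tissues. In iWAT it held 58.5, 38.9 and 53.4 in flox against 70.3, 91.3 and 59.9 in AKO (chr9:68690649-68690946), with 0.55 ± 0.22 (SE), adjusted p = 0.302. In BAT (chr9:68690692-68690937) the fold change was 0.38 ± 0.20 (SE), adjusted p = 0.619. The 300 bases around its centre in BAT (mm10 chr9:68690665-68690964, plus strand), which reach past the ends of that peak of 246 bp, hold 2 copies close to the half-site, read on the minus strand and 1 base apart, in capitals:
Rora 598.9 kb upstream: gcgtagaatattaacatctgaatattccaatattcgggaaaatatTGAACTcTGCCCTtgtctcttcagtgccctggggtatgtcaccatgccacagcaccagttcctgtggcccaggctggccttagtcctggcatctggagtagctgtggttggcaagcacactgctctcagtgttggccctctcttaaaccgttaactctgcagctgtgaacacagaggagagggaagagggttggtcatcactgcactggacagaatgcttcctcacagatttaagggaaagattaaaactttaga

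The peak 234.2 kb upstream, also in intron 1 of Rora-201, had the reverse order in BAT (chr9:69055240-69055711), with 322, 267 and 288 in flox against 244, 179.6 and 259 in AKO. AKO samples were the 3 lowest, and the fold change was -0.12 ± 0.20 (SE), adjusted p = 0.880, or -0.37 without PC1. In iWAT (chr9:69055297-69055655) the values were 61.3, 52.3 and 55.9 in flox against 77.2, 77.6 and 74.8 in AKO, all AKO aliquots above all flox aliquots, with 0.43 ± 0.13 (SE), adjusted p = 0.204. The window at its centre (mm10 chr9:69055326-69055625, plus strand) holds 2 copies close to the half-site 3 bases apart, in capitals:
Rora 234.2 kb upstream: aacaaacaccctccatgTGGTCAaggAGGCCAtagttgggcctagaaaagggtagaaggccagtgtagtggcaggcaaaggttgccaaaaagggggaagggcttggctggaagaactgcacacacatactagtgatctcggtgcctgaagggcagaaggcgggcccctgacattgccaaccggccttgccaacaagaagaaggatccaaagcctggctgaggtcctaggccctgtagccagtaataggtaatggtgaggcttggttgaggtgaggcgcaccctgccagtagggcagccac

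The smallest p of Rora in iWAT belonged to a small peak 139.3 kb upstream (chr9:69150298-69150521), with 10.7, 13.3 and 13.8 in flox against 21.9, 22.8 and 38.5 in AKO. Its log2 fold change was 1.04 ± 0.23 (SE), adjusted p = 0.152, with edgeR's adjusted p at 0.104, and the fewest reads in a sample were 12. Peaks 30.1 and 59.3 kb upstream were also higher without overlap in iWAT, at 138, 121 and 121 in flox against 149, 147 and 146 in AKO, and at 90.5, 103 and 114 in flox against 119, 116 and 115 in AKO, respectively. A peak 24.3 kb upstream was lower without overlap, at 44.2, 37.8 and 53.4 in flox against 36.9, 25.1 and 34.2 in AKO. Of the other named BAT peaks, that at 108.0 kb (chr9:69181477-69181847) held 122, 61.3 and 67.3 in flox against 138, 44.4 and 83.5 in AKO, and its fold change of 0.86 ± 0.32 (SE), adjusted p = 0.522 became 0.01 without PC1. That at 73.3 kb (chr9:69216227-69216441) held 44.9, 33.3 and 50.4 in flox against 32.0, 40.6 and 28.8 in AKO, with -0.55 ± 0.25 (SE), adjusted p = 0.571. Further peaks in the Rora body carry 2 other symbols in the tables, 9530091C08Rik and Gm15511. Of these 16 in BAT, 2 were higher in AKO without overlap and 1 was lower, and of 8 in iWAT, 0 were higher and 0 were lower.

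**Figure D3:**
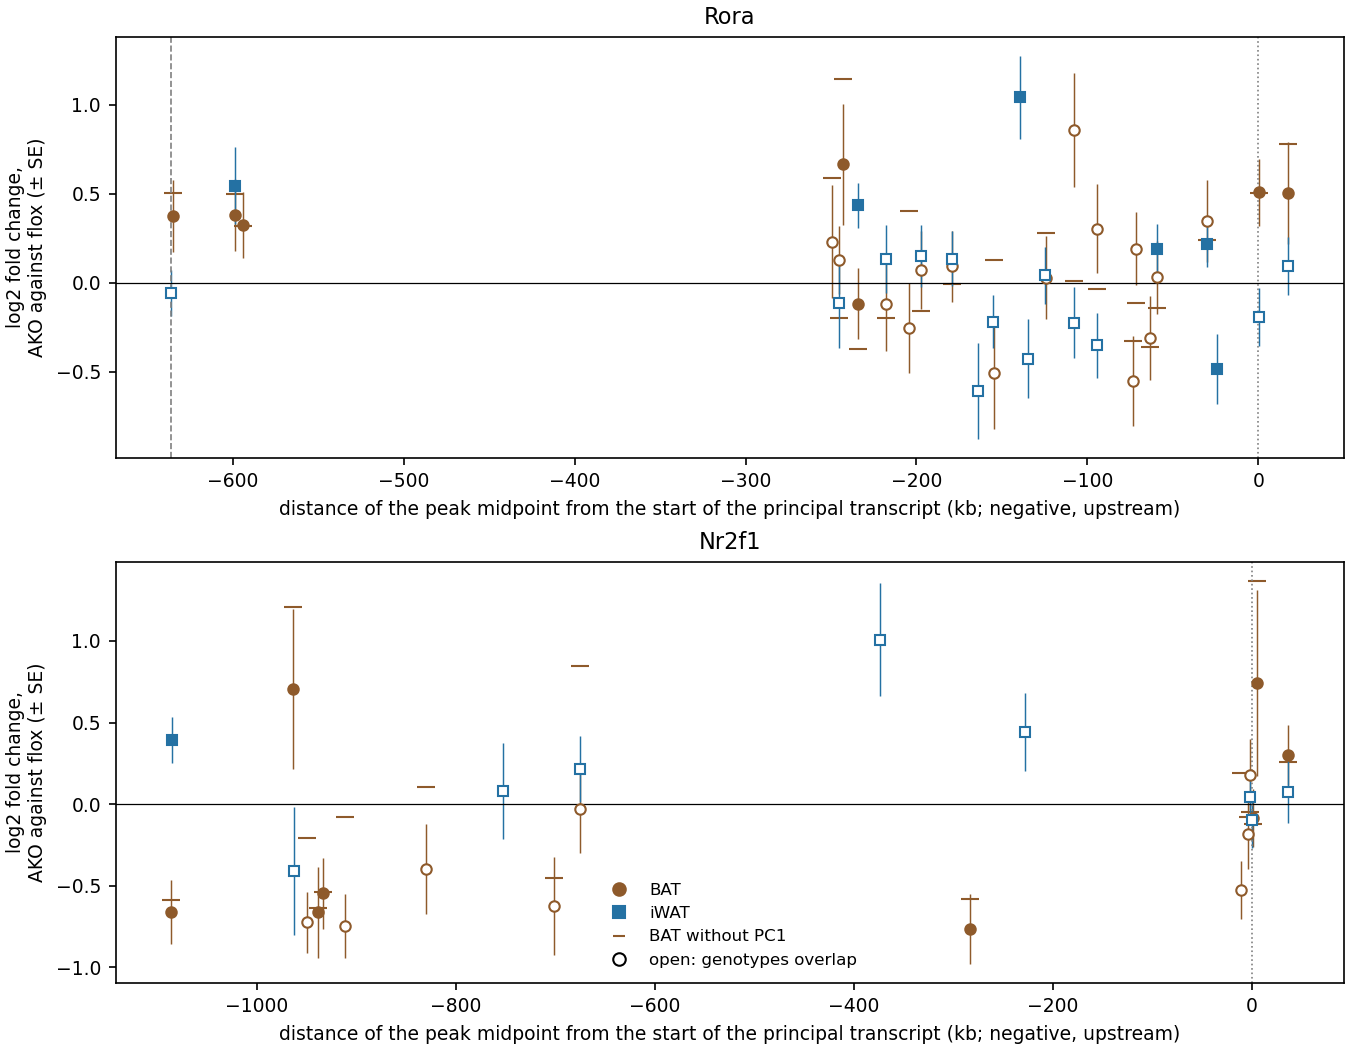
Log2 fold change of AKO against flox (± SE) at the peaks of Rora (top) and Nr2f1 (bottom) by distance from the start of the principal transcript in kb; the dashed line marks the upstream Rora start, filled points have genotypes that do not overlap, and dashes give the BAT value without the PC1 covariate. In BAT, points at both Rora starts lie above 0 and most Nr2f1 points beyond 900 kb lie below it, 2 of them lying between -0.20 and -0.08 without the covariate.

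Vdr (vitamin D receptor), on the minus strand of chromosome 15, had its smallest p in an intron in iWAT. The peak in intron 2, 20.4 kb downstream of the start (chr15:97887771-97888062), held 52.0, 54.5 and 47.3 in flox against 31.1, 32.0 and 19.2 in AKO. Every AKO aliquot was below every flox aliquot, and AKO kept 53.5% of the flox mean (51.3 ± 3.63 in flox and 27.4 ± 7.11 in AKO, SD, n = 3). The log2 fold change was -0.91 ± 0.21 (SE), adjusted p = 0.159 by limma, which misses the threshold. The adjusted p was 0.180 by DESeq2 and 0.0659 by edgeR, under 0.1 in the latter only. No BAT peak was assigned to Vdr there. The window over its 292 bp (mm10 chr15:97887767-97888066, minus strand) is shown as the place of the 1 receptor peak that any of limma, DESeq2 and edgeR called. It holds none of the receptor motifs searched:
Vdr intron 2: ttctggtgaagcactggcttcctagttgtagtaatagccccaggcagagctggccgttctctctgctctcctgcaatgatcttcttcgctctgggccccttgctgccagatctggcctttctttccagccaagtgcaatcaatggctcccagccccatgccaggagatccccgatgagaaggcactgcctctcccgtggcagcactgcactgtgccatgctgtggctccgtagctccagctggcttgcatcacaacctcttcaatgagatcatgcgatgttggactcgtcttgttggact

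At the Vdr start site the genotypes overlapped in both tissues. In BAT (chr15:97907867-97908485) it held 125, 138 and 146 in flox against 146, 170.0 and 109 in AKO, with -0.20 ± 0.22 (SE), adjusted p = 0.810, and in iWAT (chr15:97907426-97908498) 106, 122 and 118 in flox against 136, 115 and 127 in AKO, with 0.13 ± 0.14 (SE), adjusted p = 0.702. A peak about 6 kb upstream held 187, 183 and 166 in flox against 231, 149 and 188 in AKO in BAT (chr15:97914162-97914803), with 0.34 ± 0.20 (SE), adjusted p = 0.652, or 0.06 without PC1. In iWAT it held 90.5, 101 and 67.1 in flox against 83.0, 103 and 97.3 in AKO, which overlapped. The remaining iWAT peak, in intron 3, held 10.7, 21.1 and 17.2 in flox against 33.4, 18.3 and 18.2 in AKO, and overlapped too.

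Peaks away from the start sites, most of them named above by the smallest p or after their values were seen, are plotted together below.

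**Figure D4:**
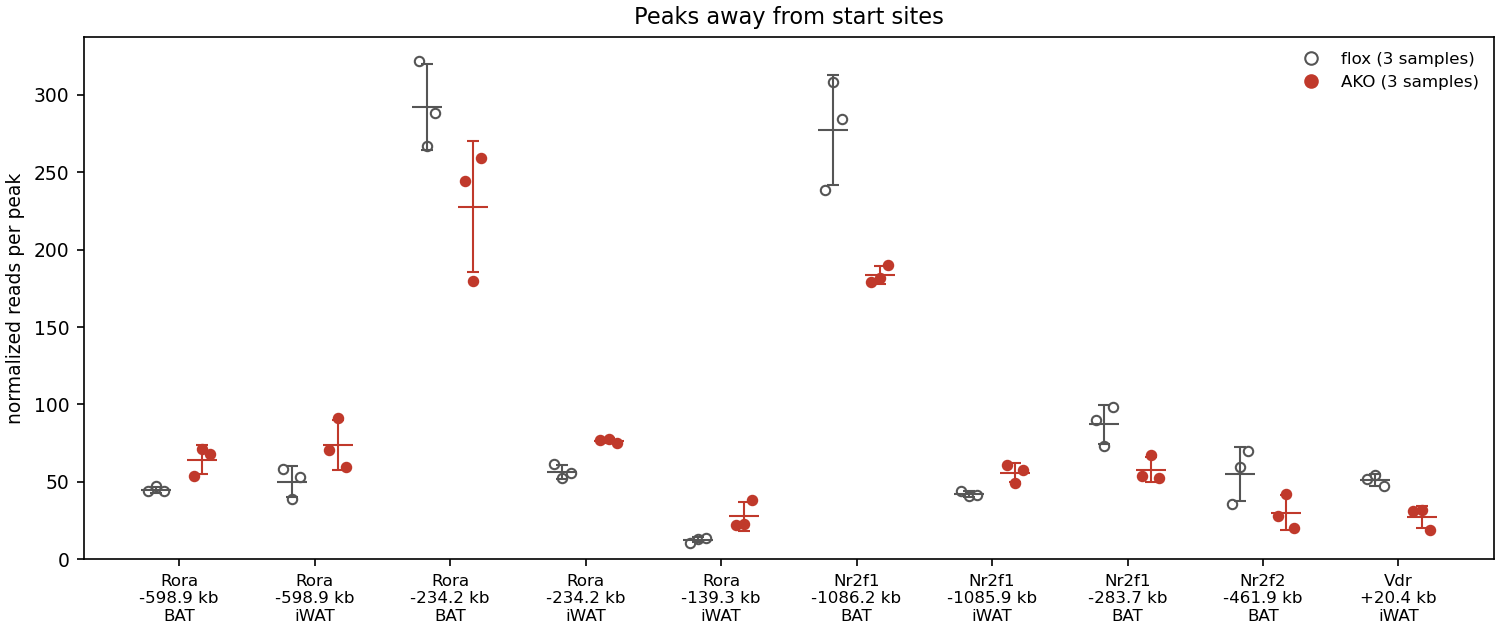
Normalized reads per peak in 3 flox (open) and 3 AKO (filled) samples, with mean and SD, at 10 peaks away from start sites, labelled by gene, distance from the start of the principal transcript and tissue. Rora at 598.9 kb is higher in AKO in both tissues, Rora at 234.2 kb and Nr2f1 at about 1086 kb are lower in AKO BAT and higher in AKO iWAT, and Nr2f2 at 461.9 kb is the 1 peak shown whose genotypes overlap.

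Summed over all peaks of a gene, the genotypes were separated in 4 of 14 sums. The share over the sums of all other genes was not computed. In BAT, the sum over 22 Rora peaks was 3074, 2873 and 2948 in flox against 3208, 3106 and 3347 in AKO, higher in every AKO sample, at a log2 ratio of 0.12. Its mean was 2965 in flox and 3220 in AKO. The 2 start-site peaks within it had means of 308 and 330 in flox against 440 and 468 in AKO. Their joint rise is no smaller than that of the sum, so the sum repeats the start-site values and shows no rise over the other Rora peaks. Nr1h2 and Nr2f6, each with 1 peak, were lower in every AKO sample, at ratios of -0.41 and -0.24. Nr1h3 in iWAT, also with 1 peak, was higher in every AKO aliquot, at 0.23. A sum over 1 peak only repeats the start-site values given above. For the 4 separated sums the exact two-sided permutation test gave p = 0.1, the smallest that 3 against 3 samples allow. After Benjamini-Hochberg adjustment over the 14 sums it was 0.35. The other 10 sums had exact p-values from 0.2 to 0.9. The Nr2f1 sum in BAT was 1944, 2117 and 2159 in flox against 1734, 2183 and 1790.3 in AKO, with AKO 2 the highest of all samples and a log2 ratio of -0.12 (exact p = 0.400).

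Of the receptor peaks, 28 of 54 in BAT (51.9%) overlapped a receptor peak of the iWAT table by at least 1 base, and 29 of 40 in iWAT (72.5%) overlapped 1 in BAT, which made 29 pairs. Fold changes had the same sign in 16 of the 29. In 2 pairs (6.90%) the genotypes were separated in opposite directions, at Nr2f1 1086.2 kb and Rora 234.2 kb upstream, both described above. Among 31936 overlapping pairs of all peaks, 470 did so (1.47%). In 1 pair, Rora 598.9 kb upstream, AKO was higher without overlap in both (3.45%; 383 of all pairs did so), and in 0 pairs it was lower in both, against 1.05%. Since the tables were normalized separately and iWAT replicates are technical, the difference between the tissues was not tested.

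**Figure D5:**
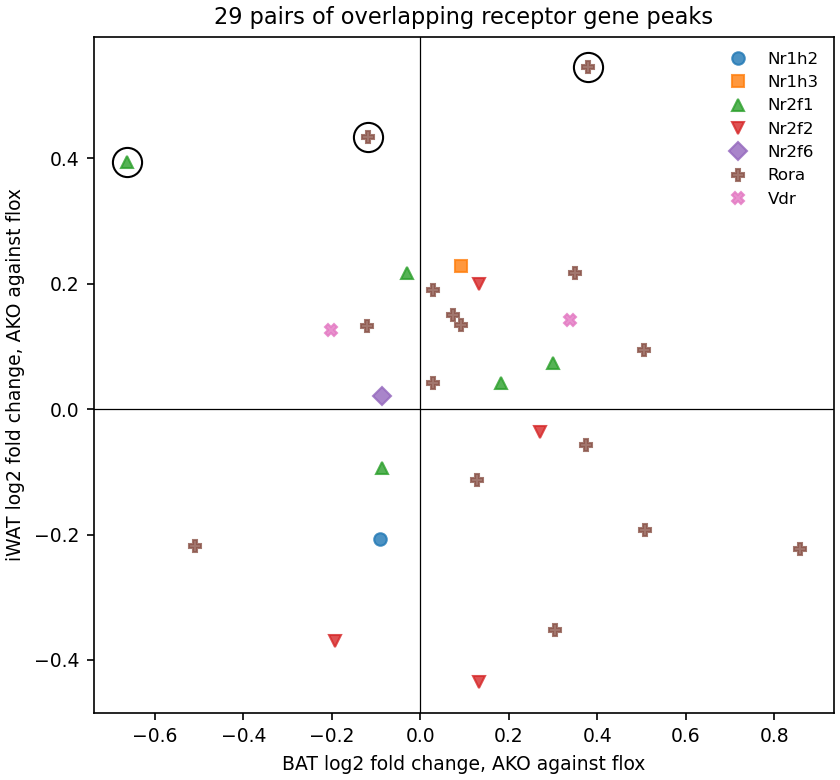
Log2 fold change of AKO against flox in BAT (x axis) and iWAT (y axis) for the 29 pairs of overlapping receptor peaks, by gene; circles mark the 3 pairs whose genotypes do not overlap in either tissue. Points fall in all 4 quadrants, with 16 pairs of the same sign.

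The 300 bases at the centre of each peak were searched on both strands for AGGTCA, for TAGGTCA, the letters of a ROR site, and for 2 copies of AGGTCA in the same orientation with 1, 3 or 4 bases between them and at most 2 mismatches over both copies. A TAGGTCA match is also an AGGTCA match, and repeats with no mismatch hold AGGTCA as well. AGGTCA stood in 6 of 54 BAT windows (11.1%, against 22.9% of all BAT peaks) and in 4 of 40 iWAT windows (10%, against 19.0%). Repeats 1 base apart stood in 5 BAT windows (9.26%, against 6.41%) and 3 iWAT windows (7.5%, against 5.16%). For a spacing of 3, as the vitamin D receptor binds with RXR, the counts were 5 (9.26%, against 3.90%) and 2 (5%, against 3.28%), and for a spacing of 4, as LXRs bind with RXR, they were 2 (3.70%, against 4.41%) and 1 (2.5%, against 3.72%). TAGGTCA stood in 1 window of each table, 124.5 kb upstream in Rora in BAT and at the Nr2f6 start in iWAT. The RefSeq promoters of the 7 genes, 9 in all, held none of these matches, where AGGTCA stands in 16.3% and TAGGTCA in 2.61% of all 32851 promoters. A match describes letters only, and binding was not measured.

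Genes of the same pathways were counted by list, with lists chosen by known role. At an unadjusted p under 0.05 by limma, 5.59% of all BAT peaks were lower in AKO and 3.46% were higher. In iWAT these shares were 7.42% and 7.61%. Peaks of the RXR genes Rxra, Rxrb and Rxrg, partners of LXR and of the vitamin D receptor, passed an unadjusted p under 0.05 for 1 lower and 3 higher of 23 in BAT, where Rxrb had none, and 0 lower and 5 higher of 24 in iWAT. In iWAT 8 of the 24 were higher without overlap and 1 was lower, beside 10.6% and 10.3% of all iWAT peaks, with a median log2 fold change of 0.13. Of 8 LXR target genes, among them Abca1 and Abcg1, which export cholesterol, and Srebf1 and Scd1, which serve lipogenesis, the counts were 5 lower and 3 higher of 66 BAT peaks and 4 lower and 6 higher of 48 iWAT peaks. Without overlap, 9 of the 66 BAT peaks were lower and 3 higher, beside 8.84% and 8.77% of all BAT peaks. ROR targets of the clock, such as Arntl and Npas2, had 1 lower and 0 higher of 19 in BAT and 0 lower and 0 higher of 16 in iWAT. VDR targets, among them Cyp24a1, which degrades calcitriol, had 1 lower and 0 higher of 11 and 0 lower and 1 higher of 6. Genes that make or remove the ligands had 3 lower and 1 higher of 17 and 1 lower and 0 higher of 9, coregulators had 2 lower and 5 higher of 95 and 6 lower and 4 higher of 73, and the other receptors of the same subfamilies had 0 lower and 1 higher of 23 and 1 lower and 3 higher of 13. Limma called none of these peaks, 254 in BAT and 189 in iWAT, at an adjusted p under 0.1, and DESeq2 and edgeR called 0 in BAT. In iWAT, DESeq2 called 3 (1.59%, against 1.06% of all peaks), and edgeR called 11 (5.82%, against 4.67%), 7 lower and 4 higher in AKO. Of the 11, 6 were among the 48 LXR target peaks, 2 in other receptors of the same subfamilies, 2 in coregulators and 1 in VDR targets. The genotypes overlapped at 1 of the 11. The 3 called by DESeq2 were 1 peak each of Mylip, which encodes a ligase that degrades the LDL receptor, of Scd1, a fatty acid desaturase, and of the corepressor gene Nrip1. All 3 were lower in AKO without overlap. The Scd1 peak held 379, 279 and 509 in flox against 179.8, 237 and 195 in AKO. The shares of all peaks at an unadjusted p under 0.05 and without overlap given above are the measure for these counts, and no list was tested as a whole.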

How the data were processed

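ATAC-seq of whole brown fat (3 flox and 3 AKO mice) and whole inguinal fat (3 aliquots of 1 pool per genotype) was analysed from 2 peak tables. The authors trimmed adapters, aligned reads to mm10, called broad peaks with MACS2 and counted reads per peak. The submitters' processing notes name BWA 0.7.17-r1188, Picard 2.8.14, MACS2 2.1.1.20160309, bedtools 2.27.1 and DESeq2 1.20.0. The deposited signal values are read counts per peak divided by the DESeq2 size factor of each sample, normalized separately in each tissue. All values came out as whole reads (100%) after the size factors were recovered, within 3.3e-06 of a whole number. The tables' own DESeq2 columns (mean, fold change, error, statistic and p-values) were not used.

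Differences were fitted over all peaks of a table with limma 3.58.1 on log2(normalized reads + 1), with the PC1 score as covariate in BAT and none in iWAT, after the methods of the study. Benjamini-Hochberg adjusted p under 0.1 was the threshold, and every adjusted p in the text is from limma unless another tool is named. Fold changes on this scale understate those of low peaks. DESeq2 1.42.0 and edgeR 4.0.16 on the recovered reads served as alternatives. The limma fit was tested on simulated reads, and the search for repeats on sequences with planted copies. DESeq2 gave no adjusted p for 20 of 54 BAT and 6 of 40 iWAT receptor peaks. Other alternatives were pseudocounts of 0.1 and 10, at least 10 reads in every sample, TMM or total-read scaling, a threshold of 0.05, a replicate block, the other choice of covariate, and leaving out each sample. Depth was 6336670 to 27500738 reads in peaks in BAT and 4066720 to 6691161 in iWAT.

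Peaks were named by rule: for each gene and table, the peak within 1 kb of the principal start and that with the smallest p, or the 3 smallest where a gene had more than 10 peaks. Others are said to be chosen after their values were seen, or are those whose genotypes did not overlap. The genes, lists and rules were chosen with earlier results of these data known. Starts in the tables count from 0 and were raised by 1. Genes are those of GENCODE vM21, letters those of GRCm38.p6, the same build as mm10, and motifs were searched in windows of 300 bp.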

Additional observations from a re-analysis of the deposited data

Results flagged for a closer look

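At 2 pairs of overlapping peaks the genotypes were separated in opposite directions in the 2 tissues, and the difference was not tested. At the far Nr2f1 peak the log2 fold change was -0.66 in BAT, with all AKO samples below all flox samples, and 0.39 in iWAT, with all AKO aliquots above. At the Rora peak 234.2 kb upstream it was -0.12 in BAT, where AKO held 179.6 to 259 normalized reads and flox 267 to 322, and 0.43 in iWAT, where AKO held 74.8 to 77.6 and flox 52.3 to 61.3. Over all peaks, 470 of 31936 overlapping pairs (1.47%) were separated in this way, and 2 of the 29 receptor pairs. The Nr2f1 peaks shared 249 bp of the 901 bp of the BAT peak, so that 1 opposite pair was left where at least 50% of both peaks had to overlap.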

How the results depend on the processing

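Over the 25 named peaks, 235 of 250 values under another setting kept their direction and their side of the threshold, 14 reversed, and 1, Vdr intron 2, was called under edgeR only (-0.90). Limma called 0 of all peaks at 0.1, so a threshold of 0.05 could change none of its calls and tests nothing. No PC1 covariate in BAT gave -0.24 at the Nr1h3 start and 0.034 at the Vdr start, and 5 receptor peaks lower and 7 higher at an unadjusted p under 0.05. DESeq2 without PC1, added after the data were seen, gave -0.23, 0.046, 4 lower and 5 higher, with 303 and 300 of all peaks called. With PC1, DESeq2 called 127 lower and 47 higher and edgeR 67 and 17. In iWAT, DESeq2 called 225 and 195 of all peaks and edgeR 996 and 850, with 1 receptor peak. DESeq2 left 1 iWAT receptor peak lower and 3 higher at an unadjusted p under 0.05. With a PC1 covariate 3 were lower (7.5%, against 2.85% of all peaks) and 1 was higher (2.5%, against 1.08%), Nr2f1 exon 1. Of these, 0 were lower and 0 were higher at that threshold in the main fit as well. With DESeq2 and PC1, added after the data were seen, 0 were higher. In BAT, PC1 scores overlapped between the genotypes but were not balanced over them, so the covariate of the main BAT fit is not free of genotype. In iWAT, PC1 separates the genotypes, so that covariate competes with genotype. Under limma and DESeq2 with it, iWAT values turned to 2.74 and 2.797 at the Nr2f1 exon 1 peak, -0.59 and -1.27 at Nr2f1 374.1 kb, -0.37 and -0.33 at Nr2f6, 0.35 and 0.26 at the Rora downstream start, and -0.54 and -0.56 at the Vdr start. Total-read scaling turned the BAT Nr2f2 sum to 0.052. Whole peaks held AGGTCA in 14 BAT receptor peaks. Under the stricter rule of overlap 19 iWAT peaks were shared, and opposite pairs fell from 2 to 1, without that of Nr2f1. Causes not given here were not tested.

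Leaving out 1 sample at a time turned 6 of 150 values. BAT ranges were -0.013 to 0.19 (Nr1h3 start), -0.13 to 0.0024 (Nr2f1 exon 1) and -0.41 to 0.023 (Vdr start), with sums of -0.066 to 0.0096 (Nr2f2) and -0.033 to 0.14 (Vdr). The receptor counts at an unadjusted p under 0.05 ran from 6 to 8 lower and from 1 to 3 higher in BAT. In iWAT they ran from 1 to 5 and from 2 to 5. Counts without overlap ran from 8 to 11 lower and from 9 to 12 higher in BAT, and from 4 to 7 and from 8 to 11 in iWAT. With all samples they were 7 and 9 in BAT and 3 and 7 in iWAT. Leaving out a sample can only keep or raise such a count, so these ranges do not measure stability. In BAT the count of 1 higher came without flox 2 and that of 11 lower without flox 3. In iWAT, those of 5 and 1 lower came without flox 1 and without flox 3 or AKO 2, and that of 2 higher without flox 3 or AKO 1. Of the iWAT counts without overlap, leaving out flox 1, flox 2, AKO 2 or AKO 3 gave 7, 6, 5 or 6 lower, and flox 2 or AKO 2 gave 11 higher. iWAT ranges were -0.20 to 0.059 (Nr2f1 exon 1) and -0.047 to 0.079 (Nr2f6), with sums of -0.047 to 0.081 (Nr2f6), -0.033 to 0.040 (Rora) and -0.042 to 0.092 (Vdr). Among uncalled values, that of the Rora peak 108.0 kb upstream in BAT ran from 0.48 without AKO 1 to 1.38 without flox 3, the Vdr peak 6.2 kb upstream from 0.15 (without AKO 1), the iWAT Nr1h2 start to -0.083 (without flox 3) and the iWAT Rora downstream start to -0.052 (without AKO 1). The limma calls over all peaks stayed at 0 in each tissue. Replicate numbers did not pair the samples (correlations of deviations 0.49, 0.06 and -0.24 in BAT, -0.04, -0.05 and -0.06 in iWAT), and the replicate block left 0 BAT receptor peaks higher at an unadjusted p under 0.05. Depth limits the peaks with under 10 reads in a sample, 2 in each tissue.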
